A study of Mus musculus with 12 samples.

Results

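The 9 genes described here encode the core of the excitatory postsynaptic density, the protein lattice that holds glutamate receptors opposite the release site: the scaffolds Dlg4, Shank1, Shank2, Shank3 and Dlgap1, the calcium/calmodulin-dependent kinase II (CaMKII) subunits Camk2a and Camk2b, and the adhesion molecules Nlgn1 and Nlgn3. They were taken by gene symbol, as 9 of the 23329 genes and 18 of the 30383 transcripts in the deposited libraries. The rule uses no measured value, though the set was proposed with earlier results of these data known. All 9 passed the filter on low counts. They were measured in hippocampal mRNA of adult C57BL/6 mice that lack NONO (knockout, KO) or carry it (wild type, WT). NONO is a nuclear protein that binds RNA and DNA. The 12 libraries form 4 groups of 3, KO CT22, WT CT22, KO CT10 and WT CT10, named from the sample titles, which do not spell out CT. The way the Nono allele was made, the sex of the animals and an age beyond adult are not given in the sources used here.

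In an excitatory spine, neuroligins reach across the cleft to presynaptic neurexins, and their tails bind PSD-95, the product of Dlg4. PSD-95 also gathers AMPA and NMDA receptors. SAPAP1, the product of Dlgap1, links PSD-95 to the Shank proteins, which form the deeper layer of the lattice and connect to Homer and actin. CaMKII is assembled mainly from the alpha and beta subunits in the forebrain. It is activated by calcium entering through NMDA receptors and is required for long-term potentiation in the hippocampus.

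Library totals ran from 4435606 estimated counts in KO CT22 replicate 2 to 10911046 in WT CT22 replicate 3. Nono had 0 to 4 counts in each KO library and 1147 to 1814 in each WT library. The excitatory neuron markers, 6 of 6 detected in every library, summed to 4082 to 5000 CPM (counts scaled to a common library total) in KO and 4096 to 5193 CPM in WT. In 2 KO libraries the clock genes went against the CT label. Dbp, a clock output gene, had 90.9 CPM in KO CT22 replicate 1, against 32.3 and 32.9 CPM in the other KO CT22 libraries and 43.2 to 59.6 CPM in WT CT22. It had 33.6 CPM in KO CT10 replicate 3, against 93.7 and 106 CPM in the other KO CT10 libraries and 70.5 to 95.03 CPM in WT CT10. Part of the results on the members that involve KO is therefore also given without these 2 libraries, as log2 changes, counts or groups that lie apart. Log2 changes of KO against WT whose sign turned without them are given at the end. Of the other marker lists, each with all its genes detected in every library, 3 lay apart between the genotypes under 1 label. Each list was compared under both labels. Of all single genes tested, 7.25% lay apart higher in KO and 6.49% lower at CT22, and 4.9% and 5.43% at CT10. The 6 pyramidal cell markers summed to 489 to 608 CPM in KO CT22 and 659 to 687 CPM in WT CT22. The genes of this list did not all go the same way. Fibcd1 averaged 161 CPM in KO CT22 and 277 CPM in WT CT22. Grik4 averaged 70.8 and 61.3 CPM and Bok 81.9 and 83.0 CPM in the same groups. The 6 microglia markers summed to 363 to 381 CPM in KO CT22 and 391.9 to 445 CPM in WT CT22. The 6 inhibitory neuron markers summed to 896 to 990 CPM in KO CT10 and 767 to 817 CPM in WT CT10. Their part in the results was not tested. Whether the 3 libraries of a group are 3 animals is not given in the labels, and if they are not, the p-values rest on technical spread alone. In a whole hippocampus, fewer cells of a type and less RNA per cell cannot be told apart.

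Several of the 9 genes were measured as more than 1 transcript, and short runs of coding bases that help set these transcripts apart are printed here. Only runs of at most 80 bases are shown. The transcripts of Nlgn1, Dlgap1 and Camk2b also differ elsewhere, so their shares given further on do not measure a printed run alone. Capitals mark the bases present in the named transcript and absent from NM_001109752 for Dlg4, NM_001163387 for Nlgn1, NM_001128180 for Dlgap1 and both other transcripts for Camk2b, with 15 coding bases on each side in lower case. The letters come from the GENCODE transcripts of build GRCm38, the same assembly as mm10. The Dlg4 run is 9 bases on chromosome 11, 70030595 to 70030603, plus strand. The Nlgn1 runs, on chromosome 3, minus strand, are 60 bases at 25920178 to 25920237 and 27 bases at 25439865 to 25439891. They are the inserts known as splice sites A and B of neuroligin-1, and the insert at site B is known to change which neurexins bind. The Dlgap1 run is 30 bases on chromosome 17, 70718196 to 70718225, plus strand. The Camk2b run is 75 bases on chromosome 11, 5987057 to 5987131, minus strand, in the variable linker that joins the kinase domain to the association domain.
Dlg4 NM_007864: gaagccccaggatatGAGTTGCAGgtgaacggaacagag
Nlgn1 NM_138666 site A: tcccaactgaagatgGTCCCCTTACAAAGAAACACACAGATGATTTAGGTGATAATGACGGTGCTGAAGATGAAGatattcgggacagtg
Nlgn1 NM_138666 site B: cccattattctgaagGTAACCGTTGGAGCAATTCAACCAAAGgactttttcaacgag
Dlgap1 NM_177639: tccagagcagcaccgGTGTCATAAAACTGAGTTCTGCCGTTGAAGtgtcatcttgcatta
Camk2b NM_007595: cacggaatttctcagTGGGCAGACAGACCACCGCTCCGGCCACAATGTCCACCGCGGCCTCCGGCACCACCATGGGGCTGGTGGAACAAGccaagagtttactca

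Per length, the kinase and PSD-95 transcripts stood far above the other members. Camk2a averaged 2603 ± 380 TPM, the authors' value scaled for transcript length and library total, Camk2b 962 ± 154 TPM and Dlg4 773 ± 44.9 TPM (SD, n = 12 libraries). Dlgap1 followed at 289 ± 23.6 TPM, then Shank1 at 160 ± 20.3 TPM, Shank3 at 126 ± 16.6 TPM and Shank2 at 71.7 ± 11.0 TPM. The neuroligins were lowest, Nlgn3 at 64.2 ± 5.18 TPM and Nlgn1 at 38.4 ± 4.66 TPM. The ranges over libraries overlapped between 3 pairs of neighbours in this order. Camk2b exceeded Dlg4 in 11 of 12 libraries, Shank1 exceeded Shank3 in 11 of 12, and Shank2 exceeded Nlgn3 in 10 of 12. The other neighbours kept their order in 12 of 12 libraries without overlap. Dlg4 varied least between libraries, with a coefficient of variation of 5.81%, and Camk2b most, with 16.01%.

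**Figure D1:**
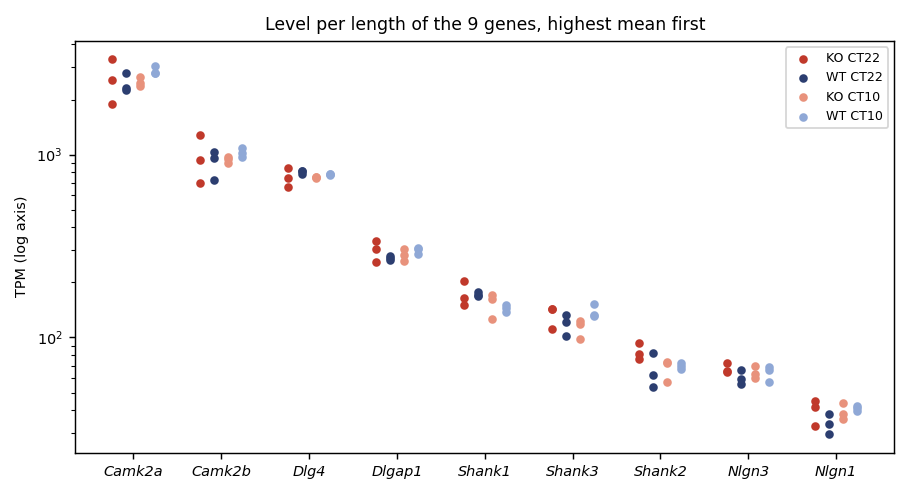
TPM on a log axis for each of the 9 genes, 1 point per library, coloured by group, with the genes ordered by their mean over 12 libraries. Camk2a lies between 1900 and 3312 TPM, above every other member, and the order below it overlaps for Camk2b and Dlg4, for Shank1 and Shank3, and for Shank2 and Nlgn3.

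The question of the series, what the loss of NONO changes in the hippocampus, was asked of these genes by KO against WT over both CT labels. None of the 9 passed an adjusted p of 0.05 in edgeR's quasi-likelihood test, and 0 of 9 had an unadjusted p under 0.05. Of all 14131 genes tested, 0.0212% passed the adjusted threshold and 6.35% the unadjusted one. DESeq2 called 0 of the 9 as well. The log2 change was above 0 for 4 of 9 members, against 51.8% of all genes, with a median of -0.03 against 0.01 over all genes. Without the 2 libraries against their clock labels it was above 0 for 2 of 9 members, against 49.4% of all genes, and 2 of 9 had an unadjusted p under 0.05, against 6.14%. At CT22 alone it was above 0 for 7 of 9 members with all libraries, against 50.6% of all genes. Without the 2 libraries it was above 0 there for 4 of 9, against 49.6%. At CT10 alone these counts were 2 of 9, against 51.5%, and 0 of 9, against 50%. In the authors' deposited table, 0 of 9 passed 0.05, and the lowest p was 0.08453, for Dlg4, at an adjusted value of 0.9187 and a log2 ratio of -0.1284.

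The precision behind these values differed between members. The 95% interval of the log2 change was narrowest for Nlgn3, -0.08 to 0.18, and Dlg4, -0.25 to 0.01. It was widest for Camk2b, -0.36 to 0.25, and Camk2a, -0.35 to 0.14.

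**Figure D2:**
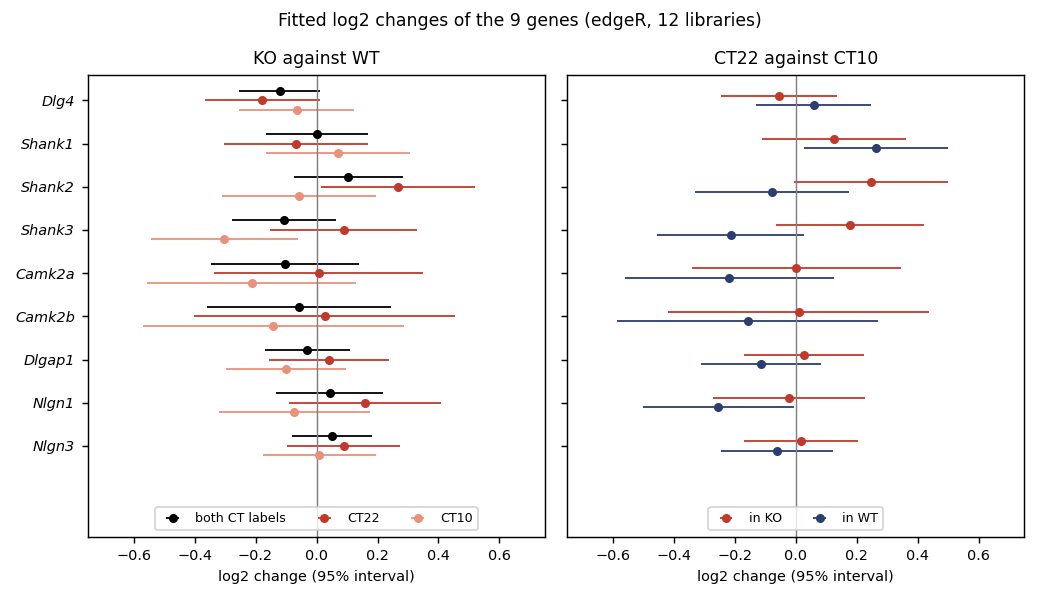
Fitted log2 change (points) with its 95% interval (bars) for the 9 genes: KO against WT on the left, over both CT labels, at CT22 and at CT10, and CT22 against CT10 on the right, in KO and in WT. Intervals that lie clear of 0 are those of Shank2 (0.02 to 0.52) at CT22 and Shank3 (-0.54 to -0.06) at CT10 on the left, and of Shank1 (0.03 to 0.50) and Nlgn1 (-0.50 to -0.01) in WT on the right, and none of these passed the adjusted threshold.

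Dlg4 (chromosome 11, 70018605 to 70045531, plus strand) encodes PSD-95, the most abundant scaffold here. It had 1072, 951 and 847 CPM in KO CT22, against 1001, 1102 and 1145 CPM in WT CT22. At CT10 it had 977, 1034 and 972 CPM in KO and 1041, 1031 and 1046 CPM in WT. Of the 6 KO libraries, 4 lie below the lowest WT library, while KO CT22 replicate 1 and KO CT10 replicate 2 lie within the WT range. Over both CT labels Dlg4 averaged 976 ± 77.1 CPM in KO and 1061 ± 52.4 CPM in WT (SD, n = 6 each), a log2 change of -0.12 ± 0.06 (SE; edgeR adjusted p = 0.801). At CT22 alone the change was -0.18 ± 0.09 (edgeR adjusted p = 0.479). It was -0.27 without the 2 libraries whose clock genes went against their label. It was -0.06 when each group lost its library richest in choroid plexus markers. These markers, 6 of 6 detected, summed to 84.2 to 3689 CPM in KO CT22 and 163 to 1547 CPM in WT CT22, and KO CT22 replicate 3, the lowest in Dlg4, held the 3689 CPM. The sum of the pyramidal cell markers was also lower in KO CT22, 489 to 608 CPM against 659 to 687 CPM in WT CT22. It was lowest in KO CT22 replicate 3. Not every gene of that list was lower, as given above. The part of either list in the Dlg4 values was not tested further.

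Dlgap1 (chromosome 17, 70424792 to 70821413, plus strand) encodes SAPAP1. It had 724, 655 and 554 CPM in KO CT22, against 617, 631 and 630 CPM in WT CT22, and 669, 599 and 627 CPM in KO CT10, against 702, 685 and 647 CPM in WT CT10. The KO CT22 libraries enclosed the whole WT CT22 range. The log2 change over both CT labels was -0.03 ± 0.07 (SE; edgeR adjusted p = 0.949).

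Of the 9 genes, Shank3 had the lowest p for KO against WT at CT10 and Shank2 at CT22. Shank3 (chromosome 15, 89499857 to 89560260, plus strand), the Shank gene deleted in Phelan-McDermid syndrome in humans, had 344, 294 and 334 CPM in KO CT10, against 385, 433 and 381 CPM in WT CT10. All 3 KO libraries lay below all 3 WT libraries. At CT22 the groups overlapped, with 395, 398 and 307 CPM in KO and 335, 389 and 311 CPM in WT. The log2 change was -0.30 ± 0.11 at CT10 (SE; edgeR adjusted p = 1.00) and 0.09 ± 0.11 at CT22 (edgeR adjusted p = 0.783). The difference between these effects, tested as an interaction, was 0.39 ± 0.16 (edgeR adjusted p = 0.737). Without the 2 libraries against their clock labels the CT10 change was -0.33 and the interaction 0.35. At CT10, 0.00708% of genes passed the adjusted threshold and 3.09% the unadjusted one, and 0 of 9 and 1 of 9 members did.

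Shank2 (chromosome 7, 144175520 to 144422675, plus strand), the least abundant of the Shank genes, had 190, 218 and 180 CPM in KO CT22, against 194, 156 and 138 CPM in WT CT22. It had 174, 145 and 176 CPM in KO CT10 and 168, 176 and 171 CPM in WT CT10. The KO CT22 libraries exceeded 2 of the 3 WT CT22 libraries, and WT CT22 replicate 1 lay within their range. The log2 change at CT22 was 0.27 ± 0.12 (SE; edgeR adjusted p = 0.431). It was 0.28 without the 2 libraries against their clock labels. It was 0.41 without WT CT22 replicate 1, 0.18 without KO CT22 replicate 2 and 0.16 without WT CT22 replicate 3. At CT22, 0.0142% of all genes passed the adjusted threshold and 10.9% the unadjusted one, so 1 unadjusted call among 9 members is near the background.

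Shank1 (chromosome 7, 44310264 to 44358353, plus strand), the most abundant of the Shank genes, had 485, 601 and 439 CPM in KO CT22, against 522, 531 and 545 CPM in WT CT22. At CT10 it had 483, 401 and 512 CPM in KO and 450, 457 and 424 CPM in WT. In each comparison of genotypes the KO libraries lay on both sides of the WT libraries. The log2 change over both CT labels was 0.00 ± 0.08 (SE; edgeR adjusted p = 0.999), with a 95% interval from -0.17 to 0.17.

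The make-up of the Shank pool was also read per length. Shank1 made up 45.0% ± 1.63 of the summed Shank TPM in KO and 44.6% ± 4.56 in WT (SD, n = 6 each). Shank3 made up 34.1% ± 1.64 in KO and 36.3% ± 3.77 in WT. Shank2 made up 20.9% ± 0.95 in KO and 19.1% ± 1.99 in WT. At CT10 the share of Shank3 was 32.7% to 35.0% in KO, below the 38.3% to 40.6% in WT, and that of Shank1 was 44.9% to 47.0% in KO, above the 40.2% to 42.0% in WT. These 3 libraries against 3 cannot reach a p below 0.1 in a two-sided exact permutation test. At CT22 the order for Shank1 was the reverse, with 42.3% to 46.3% in KO, below the 46.5% to 52.0% in WT, and the share of Shank3 overlapped, with 32.7% to 36.8% in KO and 31.6% to 36.3% in WT. Leaving out the KO library against its clock label cannot make groups that lie apart overlap, so it was no check on these shares.

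Camk2a (chromosome 18, 60925632 to 60988152, plus strand) and Camk2b (chromosome 11, 5969666 to 6065748, minus strand) encode the alpha and beta subunits of CaMKII. Camk2a had 5134, 4891 and 4825 CPM in KO CT10, against 6122, 5496 and 5589 CPM in WT CT10. Camk2b had 1506, 1491 and 1484 CPM in KO CT10, against 1771, 1535 and 1638 CPM in WT CT10. For both subunits all KO CT10 libraries lay below all WT CT10 libraries. With Shank3, 3 of 9 members were lower in KO without overlap at CT10, against 5.43% of all genes tested, and 0 were higher, against 4.9%. Over all libraries Pearson r was 0.935 for Camk2a with Camk2b, 0.680 for Camk2a with Shank3 and 0.497 for Camk2b with Shank3. These 3 members therefore do not count independently. Without KO CT10 replicate 3 the members lower without overlap were the same 3, against 8.93% of all genes. Leaving out a library cannot make groups that lie apart overlap. The log2 change at CT10 was -0.21 ± 0.16 for Camk2a and -0.14 ± 0.20 for Camk2b (SE; edgeR adjusted p = 1.00 for each). It was -0.20 for Camk2a and -0.14 for Camk2b without the 2 libraries against their clock labels. The summed dentate granule cell markers, 5 of 5 detected, were 332 to 383 CPM in KO CT10 and 370 to 417 CPM in WT CT10. With these markers as a covariate the changes were -0.15 for Camk2a and -0.06 for Camk2b. The inhibitory neuron markers were higher in KO CT10, 896 to 990 CPM against 767 to 817 CPM in WT CT10, and their part in the kinase values was not tested.

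At CT22 no member separated the genotypes without overlap, against 7.25% of all genes higher and 6.49% lower in KO. Without KO CT22 replicate 1, Dlg4 was lower in KO without overlap, as were 11.8% of all genes. The kinase subunits varied far more within KO CT22 than between the genotypes. Camk2a had 6339, 4904 and 3617 CPM in KO CT22, against 4301, 5640 and 4846 CPM in WT CT22. Camk2b had 1983, 1451 and 1078 CPM in KO CT22, against 1117, 1690 and 1625 CPM in WT CT22. KO CT22 replicate 1 was the highest and KO CT22 replicate 3 the lowest of all 12 libraries for both subunits and for Dlgap1, and both lie in the same group. The log2 change at CT22 was 0.01 ± 0.16 for Camk2a and 0.03 ± 0.20 for Camk2b (SE; edgeR adjusted p = 0.991 and 0.970). Single libraries set its sign. Without KO CT22 replicate 1 it was -0.22 for Camk2a and -0.23 for Camk2b. Without KO CT22 replicate 3 it was 0.18 for Camk2a and 0.21 for Camk2b. Without WT CT22 replicate 1 it was -0.09 for Camk2a and -0.15 for Camk2b, and without WT CT22 replicate 3 that of Camk2a was -0.005.

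The dentate granule markers moved with the kinase subunits across libraries. Their sum was highest in KO CT22 replicate 1, at 660 CPM, and lowest in WT CT22 replicate 1 and KO CT22 replicate 3, at 226 and 249 CPM. These were also the highest and the 2 lowest libraries for Camk2a and Camk2b. Other lists set the same libraries apart. The inhibitory neuron markers were lowest in KO CT22 replicate 1, at 721 CPM. They were highest in WT CT22 replicate 1 and KO CT22 replicate 3, at 1086 and 1066 CPM. The excitatory neuron markers were lowest in those 2 libraries, at 4096 and 4082 CPM. Only the dentate sum was used as a covariate, chosen after the data were seen. The CT22 change was then -0.22 for Camk2a (edgeR adjusted p = 0.263) and -0.23 for Camk2b (edgeR adjusted p = 0.288). KO CT22 replicate 3 also had the highest sum of 6 thalamus markers, 158 CPM, against 81.0 to 105 CPM in the other libraries. The ratio of Camk2a to Camk2b TPM was 2.67 ± 0.07 in KO and 2.77 ± 0.23 in WT (SD, n = 6 each). At CT22 its range in KO, 2.57 to 2.72, lay within that in WT, 2.40 to 3.102. At CT10 it was 2.618 to 2.746 in KO, just below the 2.747 to 2.883 in WT, which was not tested.

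**Figure D3:**
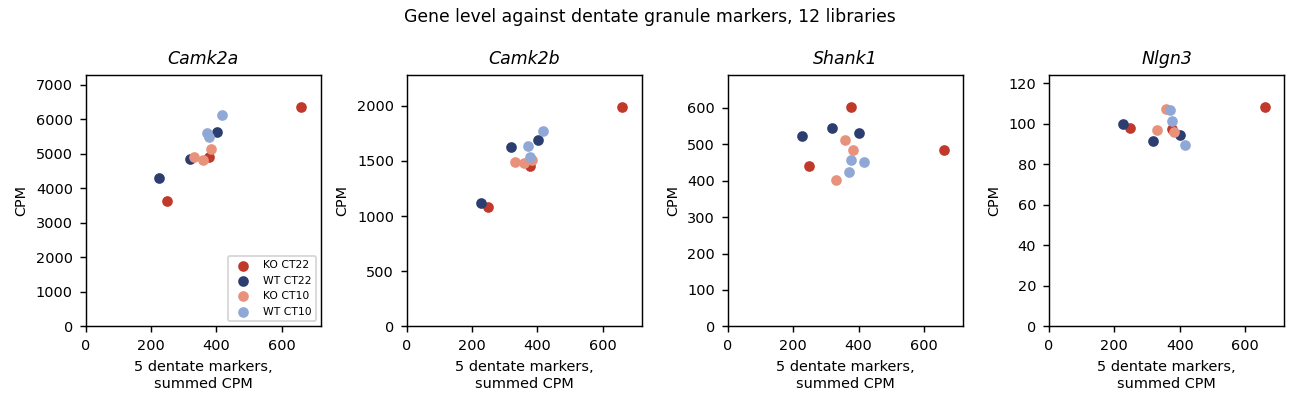
CPM of Camk2a, Camk2b, Shank1 and Nlgn3 (vertical axes) against the summed CPM of 5 dentate granule cell markers (horizontal axes), 1 point per library, coloured by group. The libraries with 226, 249 and 660 CPM of markers are the 2 lowest and the highest of the 12 for Camk2a and Camk2b, while Shank1 has its highest and lowest values at intermediate marker levels. Nlgn3 is highest, at 108 CPM, in the library with 660 CPM of markers and lowest, at 89.7 CPM, in one with 417 CPM.

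Nlgn1 (chromosome 3, 25431841 to 26331909, minus strand), the neuroligin of excitatory synapses, had 87.2, 80.9 and 64.3 CPM in KO CT22, against 65.3, 79.1 and 63.8 CPM in WT CT22. It had 87.0, 73.2 and 75.5 CPM in KO CT10, against 84.1, 83.0 and 81.1 CPM in WT CT10. The genotypes overlapped under both labels. The log2 change over both CT labels was 0.04 ± 0.08 (SE; edgeR adjusted p = 0.942).

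Nlgn3 (chromosome X, 101299179 to 101321350, plus strand), a neuroligin of excitatory and inhibitory synapses, lies 108.3 kb from Nono. It had 108, 97.5 and 97.6 CPM in KO CT22, against 99.7, 94.5 and 91.2 CPM in WT CT22, and 95.9, 96.9 and 107 CPM in KO CT10, against 89.7, 101 and 107 CPM in WT CT10. Its level overlapped between the genotypes under both labels, with a log2 change of 0.05 ± 0.06 over both (SE; edgeR adjusted p = 0.918). The ratio of Nlgn3 to Nlgn1 TPM was 1.69 ± 0.20 in KO and 1.68 ± 0.22 in WT (SD, n = 6 each).

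**Figure D4:**
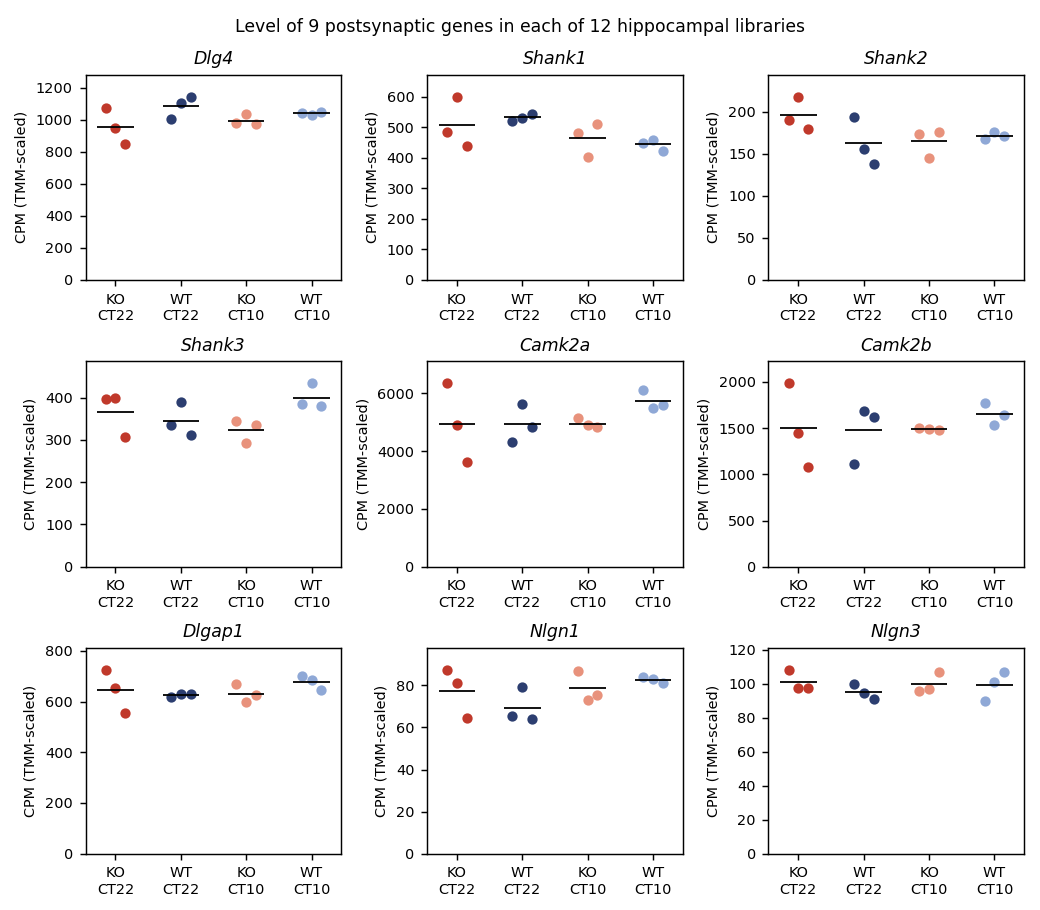
CPM of each of the 9 genes in the 12 libraries (points; bars are group means, n = 3), in the order KO CT22, WT CT22, KO CT10, WT CT10. KO and WT lie apart at CT10 for Shank3, Camk2a and Camk2b, with KO lower, and overlap for all 9 genes at CT22, where the KO libraries of Camk2a reach from 3617 to 6339 CPM.

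CT22 was compared with CT10 within each genotype. None of the 9 genes passed the adjusted threshold in KO or in WT, as for all genes (0% in each), and DESeq2 called 0 of the 9 in each. At an unadjusted p under 0.05 there were 0 members in KO, against 3.16% of all genes, and 2 in WT, against 6.76%. In WT, Shank1 had 522 to 545 CPM at CT22 and 424 to 457 CPM at CT10, without overlap, with a log2 change of 0.26 ± 0.11 (SE; edgeR adjusted p = 0.722). In WT, Nlgn1 had 63.8 to 79.1 CPM at CT22 and 81.1 to 84.1 CPM at CT10, without overlap, with a log2 change of -0.25 ± 0.12 (SE; edgeR adjusted p = 0.722). Dlgap1 in WT had 617 to 631 CPM at CT22 and 647 to 702 CPM at CT10, with a log2 change of -0.11 ± 0.09 (SE; edgeR adjusted p = 0.774). Thus 1 of 9 members was higher and 2 of 9 were lower without overlap in WT, against 7.69% and 8.54% of all genes.

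In KO, Shank2 had 180 to 218 CPM at CT22 and 145 to 176 CPM at CT10. It was the only member whose CT groups did not overlap in KO, where 4.3% of all genes were higher and 3.66% lower without overlap. Its log2 change was 0.25 ± 0.12 (SE; edgeR adjusted p = 0.977). It was 0.32 without the 2 libraries against their clock labels, 0.16 without KO CT10 replicate 2 and 0.17 without KO CT22 replicate 2. The log2 change was above 0 for 7 of 9 members in KO, against 50.1% of all genes, and for 2 of 9 in WT, against 50%. Without the 2 libraries against their clock labels it was above 0 for 4 of 9 in KO, against 50% of all genes, and 1 of 9 had an unadjusted p under 0.05, against 7.37%. The 2 remaining libraries a label then lay apart for 4 members, with Shank2 and Nlgn3 higher at CT22 and Dlg4 and Camk2b lower, against 17.7% and 17.6% of all genes. The interaction of genotype and CT label passed the adjusted threshold for 0 of 9 members and 0% of all genes, and DESeq2 called 0 of 9. It was above 0 for 7 of 9, against 49.9% of all genes, and for 5 of 9, against 49.7%, without the 2 libraries. Shank3, given above, was the 1 member with an unadjusted p under 0.05, against 6.09% of all genes, and without the 2 libraries there was none, against 4.39%.

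At the level of transcripts, 17 of the 18 passed the filter. For KO against WT over both CT labels, 0 of 17 passed edgeR's adjusted threshold and 1 had an unadjusted p under 0.05, against 0.0222% and 5.64% of 18021 transcripts. At CT22 the counts were 0 and 1, against 0.00555% and 8.25%. At CT10 they were 0 and 2, against 0.0111% and 3.24%. The share of a gene's counts on each transcript was tested for the 14 transcripts of the 6 genes with more than 1. None passed the adjusted threshold in any of these contrasts, where 0%, 0.0605% and 0% of 6607 transcripts did over both labels, at CT22 and at CT10. At an unadjusted p under 0.05 there was 1 at CT10, against 3.83%, and 0 over both labels and at CT22, against 4.15% and 4.12%.

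The Dlg4 transcript with the 9 bases, NM_007864, carried 86.7% ± 1.79 of the gene's counts in KO and 87.6% ± 1.40 in WT (SD, n = 6 each). It was the transcript with the unadjusted call over both labels, at a log2 change of -0.14 ± 0.06 (SE; edgeR adjusted p = 0.870). At CT22 it had -0.21 ± 0.08 (edgeR adjusted p = 0.585). Its share of the gene's counts had a log2 difference of -0.01 over both labels (edgeR adjusted p = 1.00). NM_001109752, without the 9 bases, made up the rest, 10.8% to 15.2% in KO and 10.4% to 14.2% in WT. The width between the authors' posterior bounds was 6.04% to 10.3% of the value for NM_007864 and 35.6% to 53.1% for NM_001109752, so the minor form is read far less precisely.

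The Nlgn1 transcript with both inserts, NM_138666, had 46.4% ± 6.05 of the gene's counts in KO and 47.5% ± 4.28 in WT (SD, n = 6 each), and NM_001163387, without them, had the rest. The 2 transcripts also differ at the 5' end, so a share does not measure an insert alone. In Shank2, NM_001113373, which starts upstream of NM_001081370, had 39.2% ± 6.05 in KO and 40.2% ± 2.90 in WT. The spread between libraries exceeded the difference between genotypes in both genes.

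Dlgap1 divided its counts mainly between 3 transcripts. NM_177639, with the 30 bases, had 58.9% ± 4.56 in KO and 61.9% ± 4.47 in WT (SD, n = 6 each). NM_001128180, without them, had 33.1% ± 4.63 in KO and 31.2% ± 4.79 in WT. It starts further downstream than NM_177639, so these shares do not measure the 30 bases alone. NM_001128181 had 8.70%, 8.02% and 7.44% in KO CT22, against 6.995%, 6.28% and 6.27% in WT CT22. These KO shares lay above the WT shares at CT22. The CT10 shares, 6.67% to 8.57% in KO and 6.32% to 7.69% in WT, overlapped. Leaving out KO CT22 replicate 1, at 8.70%, cannot undo the separation at CT22. How many of all transcripts had shares apart in this way was not counted. The usage of NM_001128181 had a log2 difference of 0.22 at CT22 (edgeR adjusted p = 1.00). NM_027712, the member transcript that failed the filter, was listed at 0 in 10 of 12 libraries.

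The kinase genes each rested on 1 main transcript. Camk2b NM_007595, with the 75 bases, had 96.6% ± 0.65 in KO and 97.2% ± 0.30 in WT (SD, n = 6 each). The other Camk2b transcripts differ from it by more than these bases. Camk2a NM_177407 had 99.5% ± 0.07 in KO and 99.6% ± 0.13 in WT. The short Camk2a transcript NM_009792, which begins inside the gene, was the transcript with the unadjusted usage call. It had 0.45% to 0.54% in KO CT10, against 0.25% to 0.41% in WT CT10, a log2 usage difference of 0.50 (edgeR adjusted p = 1.00). The direction turned at CT22, with overlapping shares of 0.35% to 0.48% in KO and 0.47% to 0.57% in WT. The log2 usage difference was -0.20 at CT22 and 0.15 over both labels. The bounds on the value of NM_009792 spanned 64.7% to 93.4% of the value.

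**Figure D5:**
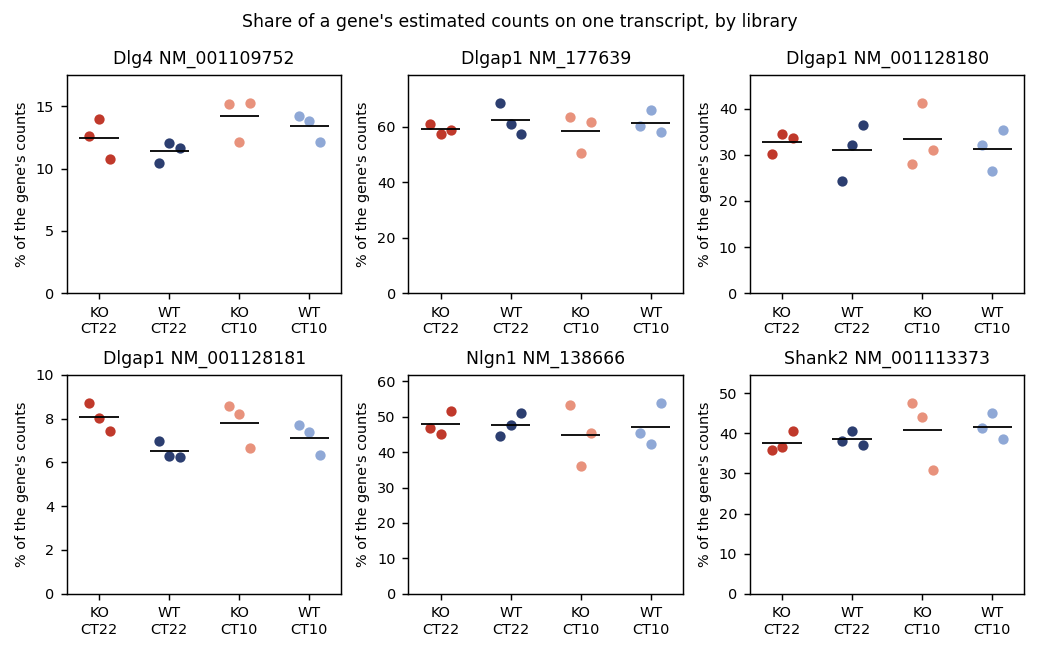
Share of a gene's estimated counts assigned to 1 transcript, in percent, for 6 transcripts of Dlg4, Dlgap1, Nlgn1 and Shank2 (points are libraries, bars group means, n = 3), in the order KO CT22, WT CT22, KO CT10, WT CT10. The groups overlap in most panels, and Dlgap1 NM_001128181 is 7.44% to 8.70% in KO CT22 and 6.27% to 6.995% in WT CT22.

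Other genes of the same machinery were read from 4 lists of 46 genes in all, of which 45 could be tested: other scaffolds of the density (16), other CaMKII subunits with the calmodulin genes and inhibitors (8), other synaptic adhesion genes (12) and small GTPase regulators of the density (9 of 10). For KO against WT over both CT labels 0 of 45 passed the adjusted threshold in edgeR, against the 0.0212% of all genes, and 4 of 45 had an unadjusted p under 0.05, against 6.35%. The log2 change was above 0 for 30 and below 0 for 15. It was above 0 for 21 without the 2 libraries against their clock labels. The median was 0.05 for the scaffolds, 0.05 for the adhesion genes, 0.01 for the GTPase regulators and -0.04 for the CaMKII list, against 0.01 over all genes.

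The regulator Sipa1l2, a Rap GTPase-activating protein, had the lowest p of the lists. It averaged 114 ± 16.2 CPM in KO and 91.8 ± 7.77 CPM in WT (SD, n = 6 each), a log2 change of 0.31 ± 0.08 (SE; edgeR adjusted p = 0.451). Homer1, the scaffold that ties Shank to metabotropic glutamate receptors, averaged 76.9 ± 8.22 CPM in KO and 65.2 ± 8.89 CPM in WT, a log2 change of 0.24 ± 0.09 (SE; edgeR adjusted p = 0.705). Begain, a binding partner of PSD-95, averaged 125 ± 4.61 CPM in KO and 141 ± 14.4 CPM in WT, a log2 change of -0.17 ± 0.06 (SE; edgeR adjusted p = 0.703). Calm2, a calmodulin gene, averaged 1216 ± 115 CPM in KO and 1359 ± 124 CPM in WT, a log2 change of -0.16 ± 0.07 (SE; edgeR adjusted p = 0.734). Camk2d, the delta subunit of CaMKII, had the largest value of its list, 0.36, with an SE of 0.28. The remaining genes that the naming rule took were Arhgap32 (0.18), Rasgrf2 (0.17), Ppp1r9b (-0.19), Nrgn (-0.14), Lrrtm2 (0.22), Lrrtm3 (0.20) and Nrxn3 (0.09), each a log2 change with an edgeR adjusted p between 0.779 and 0.880.

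Within the labels, the 45 list genes had a log2 change above 0 in 32 for KO against WT at CT22, against 50.6% of all genes, and in 15 at CT10, against 51.5%. For CT22 against CT10 it was above 0 in 35 in KO and in 15 in WT, against 50.1% and 50% of all genes. None of the 45 passed the adjusted threshold of edgeR in these contrasts. The counts at an unadjusted p under 0.05 were 8 at CT22, against 10.9% of all genes, 1 at CT10, against 3.09%, 0 in KO, against 3.16%, and 1 in WT, against 6.76%. Without the 2 libraries against their clock labels the change was above 0 in 27 for KO against WT at CT22, in 9 at CT10 and in 28 for CT22 against CT10 in KO, against 49.6%, 50% and 50% of all genes. The counts at an unadjusted p under 0.05 were then 5, 0 and 5, against 8.5%, 3.05% and 7.37%.

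Genes outside the 9 whose level followed theirs most closely were ranked by Pearson r with the members' mean standardised log2 CPM, over the 12 libraries and among genes of at least 10 CPM. They were Iqsec2 (r = 0.961), Ampd2 (0.941), Camkk2 (0.926), Ccdc85a (0.926) and Mast3 (0.922). For single members the closest genes were Ptk2b to Camk2b (0.981), Celsr3 to Shank2 (0.971), Arhgap39 to Camk2a (0.969), Rbm24 to Dlgap1 (0.965), Lrp12 to Nlgn1 (0.958), Pou3f3 to Shank1 (0.941), Tyk2 to Shank3 (0.932), Asphd2 to Dlg4 (0.930) and Sh3rf3 to Nlgn3 (0.888). These r only rank genes, and they were not tested. The members' mean was highest in KO CT22 replicate 1 and lowest in KO CT22 replicate 3, the libraries at the high and low end of the kinase subunits.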

How the data were processed

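Per the labels' protocols, stranded mRNA libraries of hippocampus were read on an Illumina instrument. Paired and single reads are both named there and not assigned to libraries. The tools listed are edgeR 3.0.6, RSEM 1.2.5, TopHat 1.3.3 and FastQC, and the build is mm10, per the submitters' processing notes. The authors deposited estimated counts and TPM per transcript, per the file headers, with a length-scaled signal and its posterior bounds, and a table of log2 ratios with p-values for KO over WT. All deposited library columns matched a sample title.

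Estimated counts were summed per gene symbol and rounded. The tests of genes, transcripts and transcript shares (diffSpliceDGE) used edgeR 4.0.16 under R 4.3.3: filterByExpr (minimum count 10), TMM factors of 0.979 to 1.021 and a robust quasi-likelihood fit of 4 group means to 12 libraries with 8 residual degrees of freedom. Benjamini-Hochberg adjustment ran over all 14131 genes, 18021 transcripts or 6607 shares. CPM are TMM-scaled, and intervals are 95%. The biological coefficient of variation was 12.3%. No exon of the 9 genes overlapped another gene. Alternatives were DESeq2 1.42.0, RLE factors, other filters, a replicate block, single libraries left out and 3 added after the data were seen. The fits were also run on simulated data. The changes planted there were larger than any fitted for the members. That run therefore cannot show whether changes of the members' size would be found.

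The members and lists were chosen with earlier results of these data known. The naming rule took all 9 members, all their transcripts of at least 5% mean share, list genes past the threshold and the 3 of each list with the largest log2 change for KO against WT. The other genes and transcripts named were chosen after their values were seen.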

Additional observations from a re-analysis of the deposited data

How the results depend on the processing

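In 57 results and 1060 alternative values, 0 members or member transcripts passed the adjusted threshold under any setting, DESeq2 included. KO CT22 replicate 2 had the lowest depth, 4435606 counts, and so the largest counting error at a given level. Signs turned only for members whose change was smaller in size than its SE, and the cause was not tested. Without the 2 libraries against their clock labels, KO against WT turned to -0.045 for Nlgn3 and -0.0083 for Shank1 at CT10, to -0.22 for Camk2a, -0.23 for Camk2b and -0.058 for Dlgap1 at CT22, and to -0.0082 for Nlgn3 and -0.026 for Shank1 over both labels. With the dentate covariate it turned to -0.22 for Camk2a, -0.23 for Camk2b, -0.048 for Dlgap1 and -0.0050 for Shank3 at CT22, and to -0.0022 for Nlgn1 and -0.011 for Shank1 over both labels. Without the library highest in choroid plexus markers in each group it was 0.042 for Shank1 at CT22 and 0.070 for Camk2b over both labels. Camk2a at CT22 was -0.0028 with no filter and -0.015 with the replicate block. Shank1 over both labels was -0.0037 in DESeq2, -0.0077 with no filter and -0.0035 with RLE factors. With single libraries left out, the log2 change at CT10 ran from -0.059 to 0.064 for Nlgn3, from -0.0054 to 0.16 for Shank1 and from -0.11 to 0.024 for Shank2. At CT22 it ran from -0.22 to 0.18 for Camk2a, from -0.23 to 0.21 for Camk2b, from -0.060 to 0.13 for Dlgap1 and from -0.21 to 0.020 for Shank1. Over both labels it ran from -0.19 to 0.036 for Camk2b, from -0.080 to 0.017 for Dlgap1, from -0.013 to 0.10 for Nlgn1 and from -0.071 to 0.047 for Shank1.

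Counts of all genes called moved more. Over both labels the 3 genes called became 22 in DESeq2, 11 with the dentate covariate, 10 with no filter, and 1 with the replicate block, without the 2 clock libraries or without the choroid plexus libraries. At CT22 the 2 became 30 in DESeq2, 4 with the dentate covariate, and 1 with the replicate block, in a fit of the 6 libraries of that label, without the clock libraries or without the choroid plexus libraries. At CT10 the 1 became 3 in DESeq2 and 4 in a fit of 6 libraries. For CT22 against CT10 the 0 became 1 in KO and 1 in WT without the clock libraries, and 4 in WT in DESeq2. Transcripts called became 2 over both labels and 7 at CT22 without the clock libraries, and 1 over both labels with the replicate block. Transcript shares called became 8 over both labels and 13 at CT22 without the clock libraries, 2, 1 and 1 over both labels, at CT22 and at CT10 with at least 10 counts in every library, and 0 at CT22 with the replicate block. With single libraries left out, genes called ran from 1 to 8 over both labels, 1 to 4 at CT22, and 0 to 1 for CT22 against CT10 in WT. Transcripts called ran from 1 to 3 over both labels, 1 to 5 at CT22 and 1 to 4 at CT10, and shares called from 0 to 3, 1 to 10 and 0 to 4. For libraries with the same replicate number, deviations from the group means were correlated. Over 18 pairs r ran from -0.33 to 0.35, with 6 above 0.1. Pairs with different numbers were not compared, so these r cannot show whether the numbers mark pairs. The main fit did not take them as pairs.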
